A study of Homo sapiens with 8 samples.

Results

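The matrix metalloproteinases (MMPs), the tissue inhibitors of metalloproteinases (TIMPs), the ADAMs and the ADAMTSs were examined in MIV-Luc cells, the luciferase-expressing form of MCF10CA1a, a metastatic carcinoma line of the MCF10A breast progression series. Members were the features whose gene symbol names one of these families. The names matched 72 of the 29141 tested features and 67 of 20219 gene symbols. They comprised 23 MMP genes on 25 features, 4 TIMP genes on 6 features, 21 ADAM genes on 22 features and 19 ADAMTS genes on 19 features. MIV-Luc-shSCR cells carried a scrambled hairpin and MIV-Luc-shIL13Rα2#2 cells a hairpin against IL13Rα2, a receptor chain that binds IL-13. Each was left without the cytokine (mock, − IL-13) or given IL-13 (+ IL-13) at 20 ng/ml over 16 h, with 2 Affymetrix GeneChip arrays per group and 8 in all. All groups therefore share the luciferase vector, hygromycin and puromycin selection, and pooled stable transductants. One hairpin and one pool of cells stand for each construct, so a difference made by the loss of IL13Rα2 and one that arose between the pools cannot be told apart.

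MMPs and most ADAMTSs are zinc endopeptidases that act outside the cell on collagens, proteoglycans and basement membrane, while membrane-bound ADAMs chiefly release the outer part of other membrane proteins, among them ligands of the EGF receptor. TIMPs bind the active site of these enzymes and block it, and each TIMP has its own range of targets. Several ADAMs, for example ADAM2, ADAM11, ADAM22 and ADAM23, lack the catalytic zinc-binding motif and work in adhesion. In carcinomas much MMP activity comes from stromal cells, which a cultured line does not have.

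The arrays had median log2 values of 5.02 to 5.06, and Pearson's r across features was 0.992 to 0.993 within groups and 0.988 to 0.993 between groups. IL13RA2, the target of the hairpin, read 8.07 and 8.09 in mock-treated shSCR cells and 6.52 and 6.34 in mock-treated knockdown cells, and IL-13 brought it to 9.36 and 9.33 and to 8.23 and 8.15. Its mean knockdown effect was -1.40 (standard error 0.08, adjusted p = 0.00105 by limma). The 11 features of epithelial keratins, EPCAM and CDH1 had summed levels of 13.3 to 13.4 in shSCR arrays and 13.1 to 13.3 in knockdown arrays. Of these 11, 8 had a mean knockdown effect below 0, 3 of them at an unadjusted p under 0.05. One of them had an adjusted p under 0.05, as TIMP1 and ADAM17 below did, namely KRT18 feature 8154725 (-0.60, adjusted p = 0.0454 by limma). The other KRT18 feature differed by -0.30 (adjusted p = 0.327 by limma). The 8 fibroblast marker features (7.62 to 7.75) and the 6 leukocyte marker features (6.90 to 7.16) had overlapping summed levels in the 4 groups. Of the 3 endothelial markers, VWF and CDH5 lay between 3.65 and 4.83, while PECAM1 had a mean knockdown effect of 0.52 and a mean IL-13 effect of -0.52 (adjusted p = 0.0615 and 0.0938 by limma). The part of these shifts in the protease values was not tested. In bulk RNA, fewer cells that express a gene and less RNA per cell cannot be told apart.

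All values below are log2 RMA values, and differences are log2 fold changes between group means. Calls required an adjusted p (Benjamini-Hochberg, over the 29141 features) under 0.05 and a change of more than 2-fold. Levels of different features are not compared, because probes differ in brightness. The group means of the members had a median range of 0.27 over the 4 groups, and 10 of the 72 features had a range above 0.5. TIMP1, at 1.23, and a TIMP3 feature, at 1.07, were the 2 with a range above 1. The mean of a member feature over the 8 arrays ran from 2.53 to 11.18. Of the 72 features, 31 lay below 4.19, the median of the array's 2904 negative control features. These controls spread from 2.07 to 9.60 (5th to 95th percentile), so no threshold of detection was set.

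The first question was whether depletion of IL13Rα2 changed any of these genes. No member passed the calling rule in mock-treated cells, where 0.0652% of all features did, nor among IL-13-treated cells (0.0515% of all features). None did for the mean knockdown effect, the average of the knockdown effects without and with IL-13 (0.0755% of all features). Without the 2-fold requirement, TIMP1 and ADAM17 had an adjusted p under 0.05 for the mean knockdown effect, that is 2 of 72 features or 2.78%, against 0.446% of all features. Both were lower in the knockdown cells.

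TIMP1 encodes a secreted inhibitor of most MMPs and of ADAM10. In MIV-Luc-shSCR cells it read 8.61 and 8.34 (− IL-13) and 8.99 and 8.80 (+ IL-13), and in MIV-Luc-shIL13Rα2#2 cells 7.58 and 7.75 (− IL-13) and 8.22 and 7.93 (+ IL-13). All 4 knockdown arrays lay below all 4 shSCR arrays, and within each construct both IL-13 arrays lay above both mock arrays. The mean knockdown effect was -0.81 (95% interval -1.06 to -0.56), a 1.76-fold lower level, with an adjusted p of 0.0293 by limma. The effect was -0.81 both without and with IL-13, in arrays that are not shared (adjusted p = 0.195 and 0.216 by limma). Opposite in sign, the mean IL-13 effect was 0.42 (standard error 0.11, adjusted p = 0.311 by limma), 0.42 in shSCR and 0.41 in knockdown cells. IL-13-treated knockdown cells were thus 0.40 below the untreated shSCR cells (adjusted p = 0.47 by limma).

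ADAM17 encodes the sheddase of tumour necrosis factor and of several EGF receptor ligands. It read 8.50 and 8.51 in mock-treated and 8.64 and 8.65 in IL-13-treated shSCR cells, against 7.85 and 8.09 in mock-treated and 8.16 and 8.13 in IL-13-treated knockdown cells. The 4 knockdown arrays again lay below the 4 shSCR arrays, with no overlap. The mean knockdown effect was -0.52 (95% interval -0.70 to -0.33), a 1.43-fold lower level, with an adjusted p of 0.0487 by limma. It was -0.54 without and -0.50 with IL-13. For either gene the adjusted p was above 0.05 once any 1 of the 8 arrays was left out. It then ranged from 0.0819 to 0.14 for TIMP1 and from 0.102 to 0.183 for ADAM17 by limma, while the mean effects stayed between -0.88 and -0.74 and between -0.58 and -0.46. Over all features the number with an adjusted p under 0.05 then fell from 130 to between 22 and 29.

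**Figure D1:**
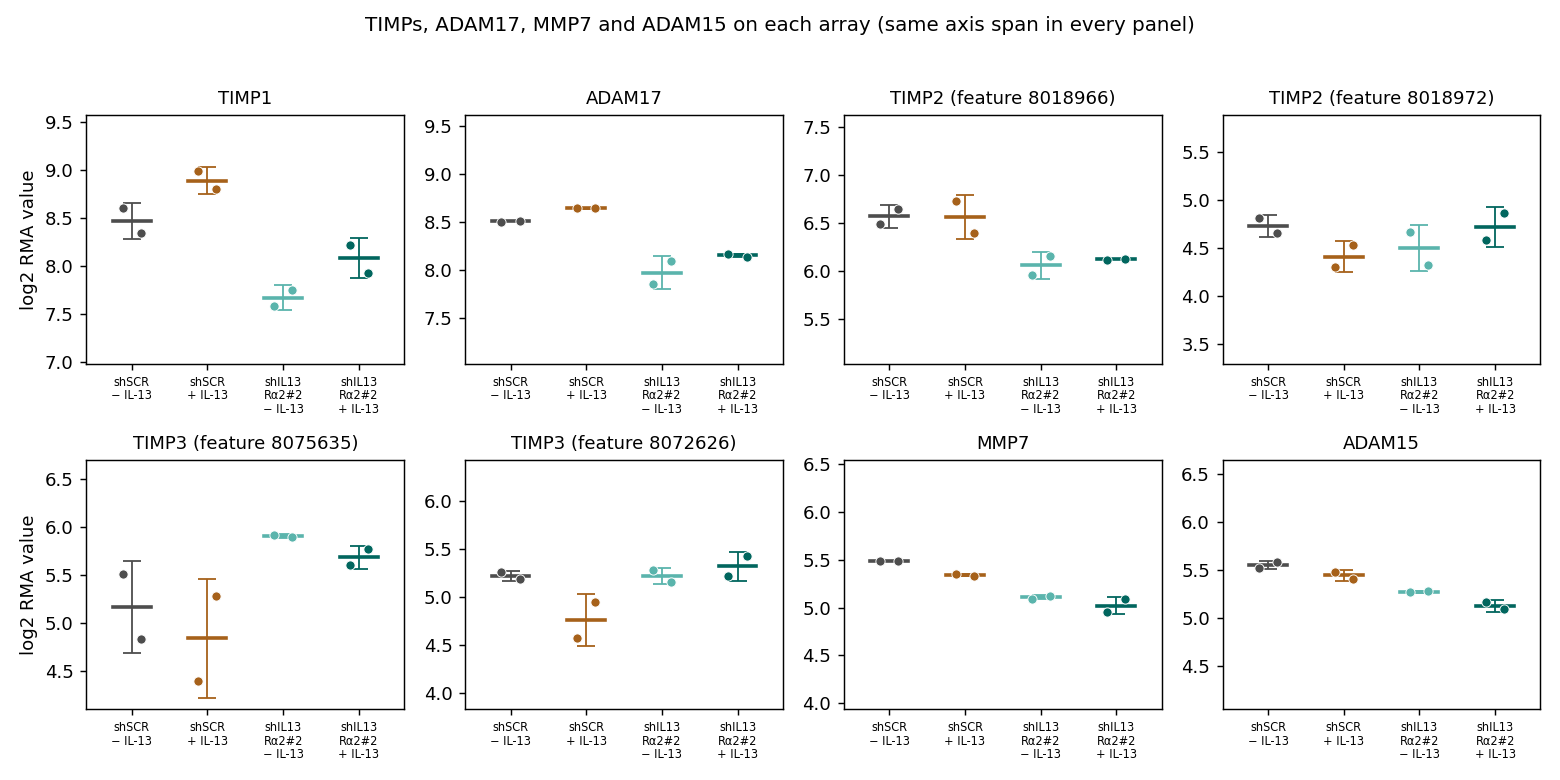
Log2 RMA value (vertical axis, of equal span in every panel) of 8 member features in the 4 groups (horizontal axis). Points are single arrays, thick bars the mean and thin bars the SD of the 2 arrays. TIMP1 and ADAM17 are lower on all 4 knockdown arrays, while the feature pairs of TIMP2 and of TIMP3 differ from each other.

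The other TIMPs did not pass the test, and they did not run in one direction. TIMP2, an inhibitor that also assists the activation of MMP2 by MMP14, had 2 features. Feature 8018966 read 6.49 and 6.65, then 6.73 and 6.40 with IL-13, in shSCR cells, and 5.96 and 6.16, then 6.12 and 6.13 with IL-13, in knockdown cells (mean knockdown effect -0.47, adjusted p = 0.139 by limma). Its arrays did not overlap between constructs, but feature 8018972 of the same gene differed by only 0.04 (adjusted p = 0.937 by limma). TIMP3 is the matrix-bound inhibitor known to act on ADAM17 and on the aggrecanase ADAMTSs. Its feature 8075635 read 5.51 and 4.83, then 4.40 and 5.28 with IL-13, in shSCR cells, and 5.92 and 5.90, then 5.61 and 5.77 with IL-13, in knockdown cells. The knockdown arrays were the higher ones throughout, with a mean knockdown effect of 0.79 (95% interval 0.30 to 1.29), but the 2 shSCR groups had SDs of 0.48 and 0.62 and the adjusted p was 0.231 by limma. Feature 8072626 of TIMP3 gave 0.28 (adjusted p = 0.391 by limma). TIMP4 read 4.15 to 4.67 over the 8 arrays.

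The other members differed less than TIMP1. Over the 72 features, the mean knockdown effect was positive for 37 and negative for 35, with a median of 0.003 (median over all features -0.006) and a median standard error of 0.10. The median absolute effect was 0.097 in the members and 0.094 over all features. At an unadjusted limma p under 0.05 there were 12 members (16.7%, against 11.3% of all features). In 10 members (13.9%, against 7.13% of all features) the 4 knockdown and 4 shSCR arrays did not overlap, namely ADAM15, ADAM17, ADAM32, ADAMTS3, ADAMTS10, MMP7, MMP13, TIMP1, TIMP2 and TIMP3, of which 5 were higher and 5 lower in knockdown cells.

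**Figure D2:**
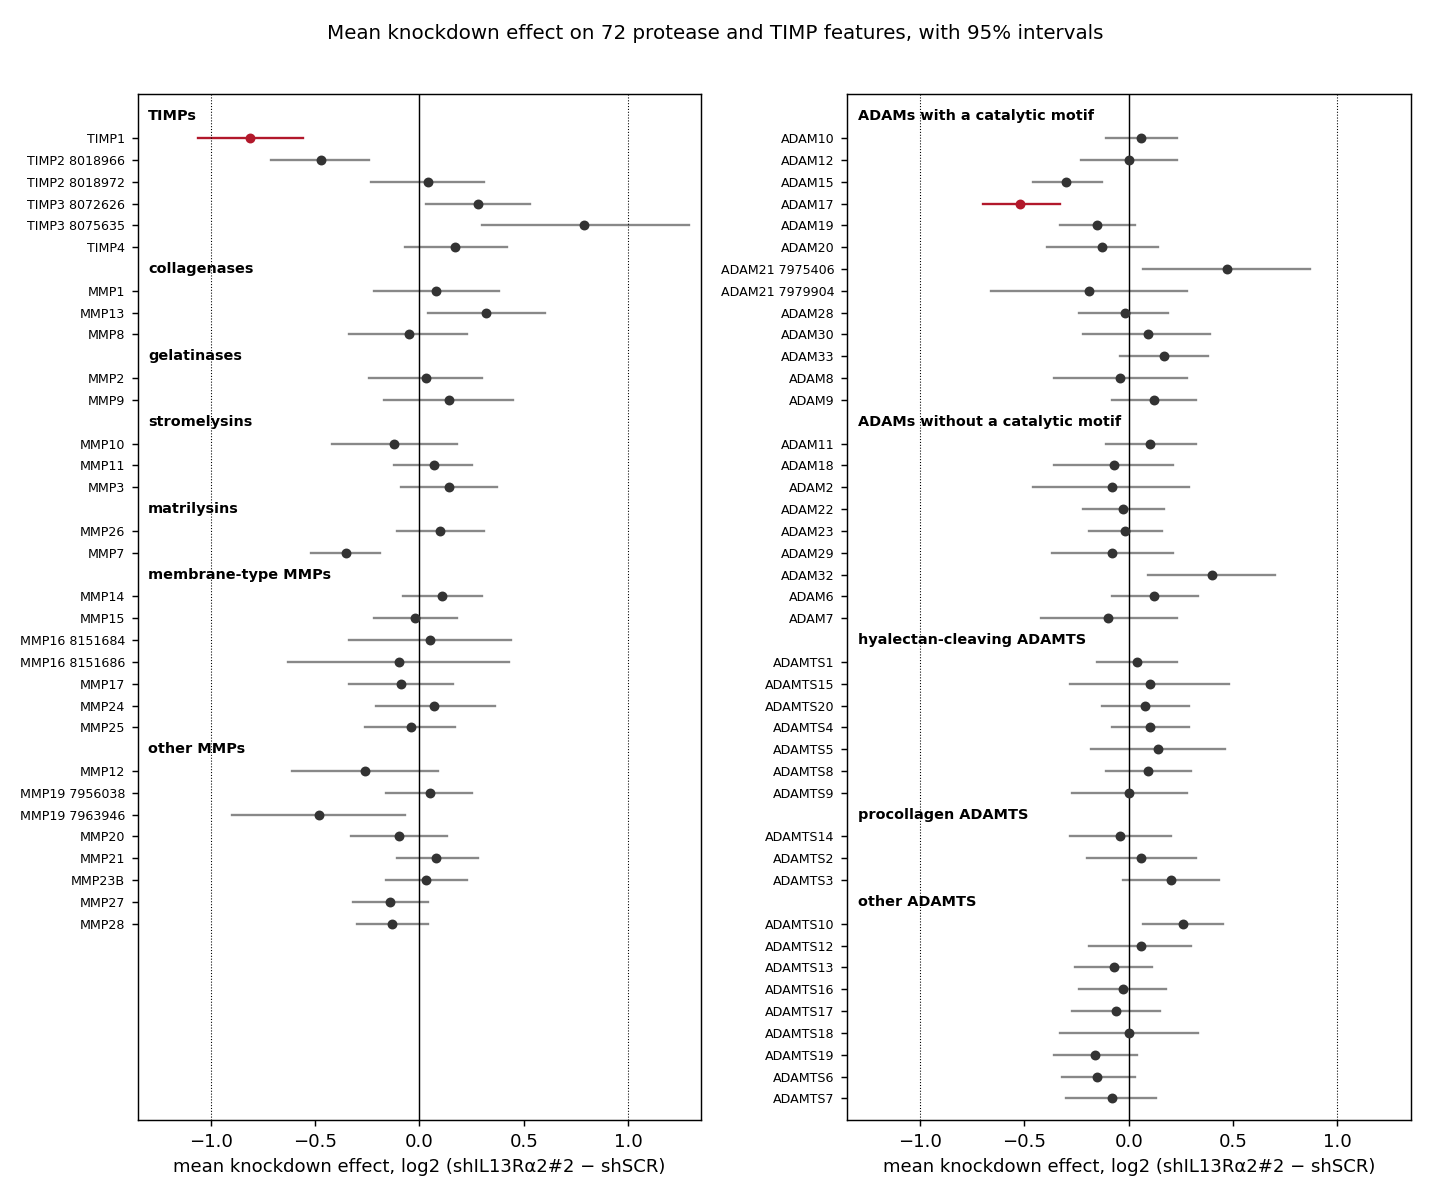
Mean knockdown effect (horizontal axis, log2, shIL13Rα2#2 minus shSCR) of each of the 72 features, grouped by role, with 95% intervals from limma. Red marks an adjusted p under 0.05 (TIMP1 and ADAM17), and dotted lines mark a 2-fold change, which no point reaches.

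MMP7, or matrilysin, is a small MMP of epithelial cells that lacks the hemopexin domain. It read 5.49 and 5.49, then 5.35 and 5.33 with IL-13, in shSCR cells, and 5.09 and 5.12, then 4.95 and 5.09 with IL-13, in knockdown cells. The group SDs were 0 to 0.09, and the mean knockdown effect was -0.35 (95% interval -0.52 to -0.19, adjusted p = 0.121 by limma). ADAM15, a membrane ADAM that can bind integrins, had the same order of groups, from 5.52 and 5.58 through 5.48 and 5.40 and 5.27 and 5.28 to 5.16 and 5.09. Its mean knockdown effect was -0.30 (adjusted p = 0.185 by limma). For both genes the untreated shSCR cells were highest and the IL-13-treated knockdown cells lowest, with differences of -0.47 and -0.42 between those groups (adjusted p = 0.184 and 0.231 by limma).

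Within the role groups, the collagenases MMP1, MMP8 and MMP13 had mean knockdown effects of -0.05 to 0.32. The highest was that of MMP13, which read 2.58 to 2.91 in shSCR and 2.93 to 3.38 in knockdown arrays (adjusted p = 0.384 by limma). Of the gelatinases, MMP2 differed by 0.03 and MMP9 by 0.14. The 7 features of membrane-type MMPs stayed between -0.10 and 0.11, with MMP14, the activator of MMP2, at 0.11 (95% interval -0.08 to 0.30). ADAM10, the constitutive sheddase of Notch receptors and E-cadherin, differed by 0.06 (95% interval -0.11 to 0.23) and ADAM9, another sheddase, by 0.12 (95% interval -0.08 to 0.32). ADAM32, an ADAM without the catalytic motif, read 4.03 to 4.62 in shSCR and 4.72 to 4.93 in knockdown arrays (mean knockdown effect 0.40, adjusted p = 0.332 by limma). All 19 ADAMTS features lay between -0.16 and 0.26, the upper value being that of ADAMTS10, a protease linked to fibrillin microfibrils (adjusted p = 0.324 by limma). The 7 hyalectan-cleaving ADAMTSs had a median of 0.09 with none at an unadjusted p under 0.05.

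The knockdown effect was measured on separate arrays without and with IL-13, and the same holds for the IL-13 effect in the 2 constructs. Across the 72 features the 2 knockdown effects had a Pearson's r of 0.46 and a Spearman's rho of 0.23, and 39 features (54.2%) had the same sign. Over all 29141 features these values were 0.24, 0.21 and 57.4%. Without TIMP1 and ADAM17 the members' r was 0.33 and rho 0.16. Genes on one array share its hybridization and normalization and are not replicates, so these are descriptions without a test. The 2 IL-13 effects had an r of 0.03 and a rho of 0.07 in the members (0.21 and 0.15 over all features), with the same sign in 38 of 72.

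**Figure D3:**
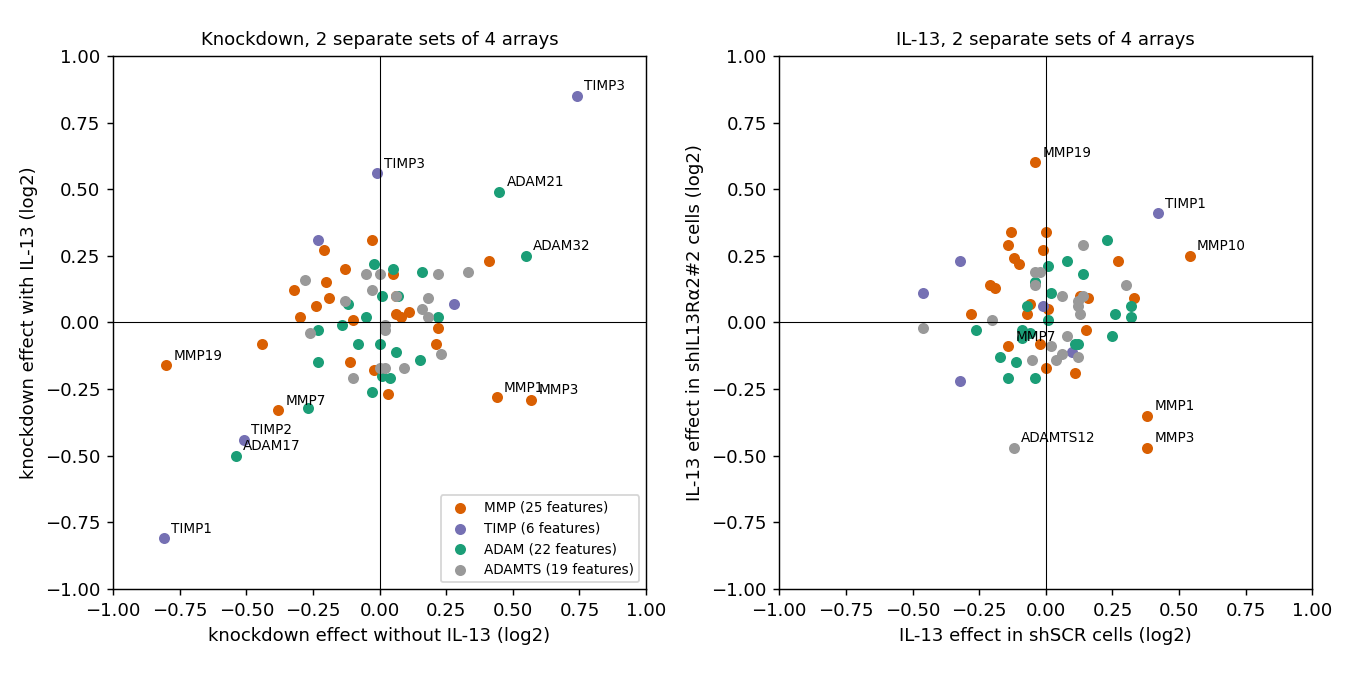
Left, knockdown effect with IL-13 (vertical axis, log2) against that without IL-13 (horizontal axis, log2); right, IL-13 effect in knockdown cells against that in shSCR cells. Each point is 1 of 72 features, coloured by family. TIMP1 and ADAM17 lie low on both axes at left, and MMP1 and MMP3 lie to the right and low at right.

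Other members were named for having one of the widest ranges of group means in their role group or for their role. They were MMP26, or matrilysin-2, with group means of 2.41 to 2.74, the macrophage elastase MMP12 with 2.44 to 2.87, MMP2 with 4.14 to 4.48 and MMP9 with 4.37 to 4.71. The membrane-type MMP15 and MMP17 ran from 4.34 to 4.55 and from 4.26 to 4.54. ADAM29, without a catalytic motif, ran from 2.64 to 2.96, and the procollagen N-proteinases ADAMTS2 and ADAMTS3 from 4.56 to 4.75 and from 3.62 to 3.93. For none of these was an adjusted p under 0.05 in any comparison by limma.

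The pairwise knockdown comparisons held the following further members. Without IL-13, 14 members had an unadjusted limma p under 0.05 (19.4%, against 9.51% of all features), 7 passed the methods' test at an unadjusted p under 0.05 (9.72%, against 7.74%), and the arrays of 35 did not overlap (48.6%, against 41.2%). The methods' test is a one-way analysis of variance, run here on the 4 arrays compared because the methods do not name the groups entered. Here and below its counts use an unadjusted p under 0.05 with no fold change threshold. The methods also required a false discovery rate under 0.05 and a change of more than 2-fold. With adjustment, this test had 0 of all 29141 features at an adjusted p under 0.05 in each of the 5 pairwise comparisons. That no member passed there was therefore fixed beforehand. No member reached a 2-fold change in any comparison. The lowest effects among members whose arrays did not overlap were TIMP1, MMP19 and ADAM17. MMP19 feature 7963946 read 4.36 and 4.65 in shSCR and 4.13 and 3.27 in knockdown cells (-0.80, adjusted p = 0.406 by limma), a difference that was -0.38 to -1.23 when single arrays were left out. The other MMP19 feature differed by 0.06. The highest were TIMP3 feature 8075635, MMP3 and ADAM32, which ranged from 0.40 to 1.08, from 0.44 to 0.70 and from 0.26 to 0.84 when single arrays were left out. The other TIMP3 feature differed by -0.01. Among IL-13-treated cells, 8 members passed an unadjusted limma p under 0.05 (11.1%, against 7.07%), 4 passed the methods' test (5.56%, against 5.89%), and the arrays of 33 did not overlap (45.8%, against 36.4%). TIMP1, ADAM17 and TIMP2 were lowest, and both TIMP3 features with the second TIMP2 feature highest. ADAM21, a testis-type ADAM, differed by 0.45 and 0.49 in the 2 comparisons on one feature and by -0.23 and -0.15 on the other.

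Treatment with IL-13 alone gave no called member in shSCR cells, where 0.0583% of all features were called, nor in knockdown cells (0.0618%), nor for the mean IL-13 effect over both constructs (0.0927%). In shSCR cells 9 members had an unadjusted limma p under 0.05 (12.5%, against 6.79% of all features), 4 passed the methods' test (5.56%, against 5.92%) and the arrays of 26 did not overlap (36.1%, against 36.7%). MMP10, or stromelysin-2, read 3.58 and 3.24 without and 3.92 and 3.99 with IL-13 (0.54, adjusted p = 0.664 by limma). MMP3, stromelysin-1, which cleaves matrix proteins and activates other MMPs, differed by 0.38. The lowest were TIMP3 feature 8072626 and ADAMTS17, both at -0.46, and TIMP2 feature 8018972 at -0.32. Their smallest adjusted p was 0.548 by limma. The other features of TIMP3 and TIMP2 differed by -0.32 and -0.01.

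In knockdown cells 5 members had an unadjusted limma p under 0.05 (6.94%, against 6.93% of all features), 5 passed the methods' test (6.94%, against 6.04%) and the arrays of 29 did not overlap (40.3%, against 37.4%). ADAMTS12, which degrades cartilage oligomeric matrix protein, read 4.24 and 4.16 without and 3.65 and 3.81 with IL-13 (-0.47, adjusted p = 0.594 by limma). MMP3 and MMP1 differed by -0.47 and -0.35, and TIMP1, MMP19 feature 7963946 and MMP2 by 0.41, 0.60 and 0.34. With single arrays left out the difference ranged from 0.17 to 1.03 for this MMP19 feature, from 0.12 to 0.57 for MMP2 and from -0.53 to -0.17 for MMP1. The other MMP19 feature differed by 0.1. For the mean IL-13 effect, 8 members had an unadjusted limma p under 0.05 (11.1%, against 8.73% of all features), with effects of -0.30 to 0.42. They included MMP28, or epilysin, at 0.25, the aggrecanase ADAMTS4 at 0.22 and ADAMTS1 at 0.21 (adjusted p = 0.376, 0.503 and 0.519 by limma).

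Knockdown cells with IL-13 were also set against untreated shSCR cells, the contrast that joins both factors. IL13RA2 itself differed by 0.11 between these groups (adjusted p = 0.815 by limma), so its RNA was not lower than in the control cells. No member was called, against 0.154% of all features. An unadjusted limma p under 0.05 was reached by 8 members (11.1%, against 9.56% of all features), the methods' test was passed by 7 (9.72%, against 7.75%), and the arrays of 29 did not overlap (40.3%, the same as the 40.3% of all features). MMP7, TIMP2 feature 8018966 and ADAM15 were lowest, at -0.47, -0.44 and -0.42, and TIMP3 feature 8075635, ADAM32 and MMP13 highest, at 0.52, 0.50 and 0.38. Leaving out single arrays gave 0.18 to 0.86 for that TIMP3 feature, 0.21 to 0.79 for ADAM32 and 0.22 to 0.54 for MMP13. The other features of TIMP3 and TIMP2 differed by 0.1 and -0.01. This comparison shares its control arrays with those of IL-13 and of the knockdown in untreated cells.

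Whether IL-13 acted differently in the 2 constructs was tested by the interaction term. No member and 0% of all features had an adjusted p under 0.05 by limma. Unadjusted, 5 members were under 0.05 (6.94%, against 4.47% of all features), and the smallest adjusted p of a member was 0.989 by limma. The largest term was that of MMP3, which read 3.43 and 3.65 without and 4.04 and 3.80 with IL-13 in shSCR cells, but 4.24 and 3.98 without and 3.64 and 3.63 with IL-13 in knockdown cells. The order of treated and untreated arrays was thus reversed between constructs (interaction -0.86, 95% interval -1.32 to -0.39). MMP1, the interstitial collagenase, had the same order, with 3.42 and 3.15, then 3.87 and 3.46 with IL-13, in shSCR cells and 3.55 and 3.91, then 3.44 and 3.33 with IL-13, in knockdown cells (interaction -0.73, 95% interval -1.33 to -0.12). Both features were among the 31 members below the median of the negative controls. So were MMP10, MMP13, ADAMTS1, ADAMTS12 and ADAM21 feature 7975406, whose differences are given above. The interaction of MMP19 feature 7963946 was 0.64 (95% interval -0.18 to 1.46), and 0.21 to 1.07 when single arrays were left out. That of the other MMP19 feature was -0.03.

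MMP1 and MMP3 lie side by side among 9 MMP genes that follow each other on chromosome 11, in the order MMP7, MMP20, MMP27, MMP8, MMP10, MMP1, MMP3, MMP12 and MMP13. MMP7, at 5.24, was the only one of the 9 whose mean over the 8 arrays lay above 4.19, the median of the negative controls. The signs of the 9 were mixed. The IL-13 effect was positive in 4 and negative in 5 of them in shSCR cells (-0.14 to 0.54), and positive in 5 and negative in 4 in knockdown cells (-0.47 to 0.29). The mean knockdown effect was positive in 3 and negative in 6 (-0.35 to 0.32, median -0.10), with 2 at an unadjusted limma p under 0.05 (11.3% of all features). Without IL-13 the knockdown effect was positive in 4 and negative in 5 (-0.44 to 0.57, median -0.19). There 5 of the 9, among them MMP7, had an unadjusted limma p under 0.05 (9.51% of all features) and none an adjusted p under 0.05. Among IL-13-treated cells 1 of the 9 did unadjusted (7.07% of all features).

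**Figure D4:**
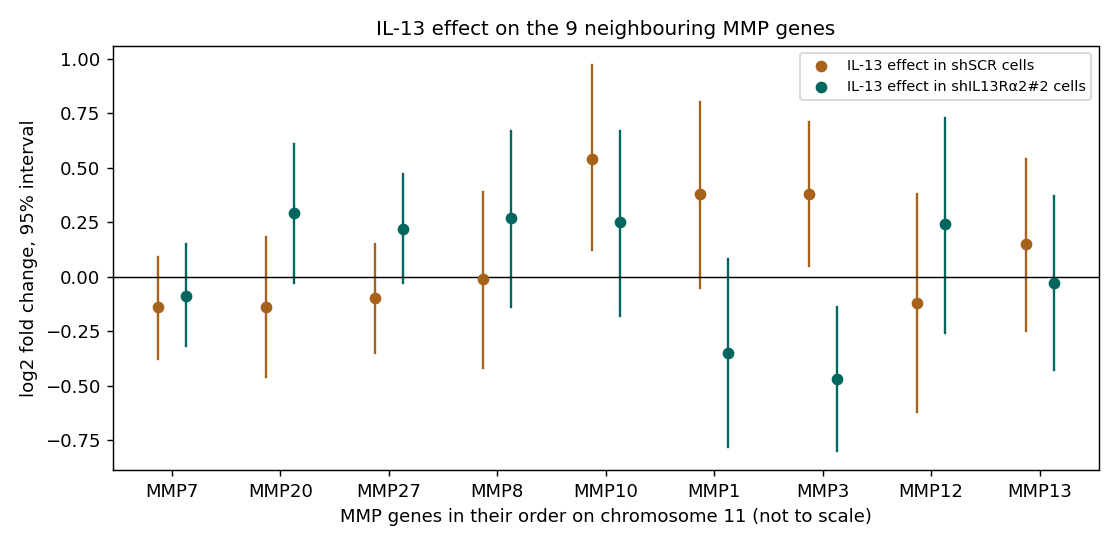
IL-13 effect (vertical axis, log2 fold change with 95% interval) on the 9 neighbouring MMP genes of chromosome 11, placed in gene order, in shSCR and in knockdown cells. The points of MMP1 and MMP3 are above 0 in shSCR and below 0 in knockdown cells, and those of MMP10 are above 0 in both. The intervals of MMP1 include 0 in both constructs, and that of MMP10 includes 0 in knockdown cells. All but MMP7 had a mean over the 8 arrays below the median of the negative controls.

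The sequence just before the start of TIMP1 and ADAM17, the members with an adjusted p under 0.05, is shown with that of TIMP3, which lay in the opposite direction, and of MMP7, the first gene of the chromosome 11 cluster. Each is the 250 bases before the RefSeq gene start, read 5′ to 3′ on the gene's strand, in build GRCh38.p14. They are TIMP1 at chrX:47582186-47582435 (plus strand), ADAM17 at chr2:9555831-9556080 (minus), MMP7 at chr11:102530748-102530997 (minus) and TIMP3 at chr22:32801455-32801704 (plus). Capitals mark matches on either strand to the AP-1 motif TGANTCA, the GC box GGGCGG, the TATA box TATAAA or the STAT6 motif, which is TTC and GAA with 4 bases of any kind between them.
TIMP1: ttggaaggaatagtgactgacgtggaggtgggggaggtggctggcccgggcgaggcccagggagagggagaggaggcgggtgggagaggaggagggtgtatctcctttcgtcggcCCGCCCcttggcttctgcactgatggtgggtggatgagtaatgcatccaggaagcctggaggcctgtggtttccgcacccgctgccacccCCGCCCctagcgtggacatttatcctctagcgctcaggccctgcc
ADAM17: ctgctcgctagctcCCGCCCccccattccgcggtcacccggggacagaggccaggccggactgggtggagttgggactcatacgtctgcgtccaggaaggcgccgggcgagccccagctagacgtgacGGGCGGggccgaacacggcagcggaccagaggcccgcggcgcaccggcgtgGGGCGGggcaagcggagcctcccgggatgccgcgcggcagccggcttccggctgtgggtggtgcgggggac
MMP7: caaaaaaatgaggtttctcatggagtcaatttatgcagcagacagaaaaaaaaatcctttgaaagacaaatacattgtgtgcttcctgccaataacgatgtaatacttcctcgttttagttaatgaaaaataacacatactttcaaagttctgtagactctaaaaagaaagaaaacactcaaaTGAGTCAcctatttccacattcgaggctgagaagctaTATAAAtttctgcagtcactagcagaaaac
TIMP3: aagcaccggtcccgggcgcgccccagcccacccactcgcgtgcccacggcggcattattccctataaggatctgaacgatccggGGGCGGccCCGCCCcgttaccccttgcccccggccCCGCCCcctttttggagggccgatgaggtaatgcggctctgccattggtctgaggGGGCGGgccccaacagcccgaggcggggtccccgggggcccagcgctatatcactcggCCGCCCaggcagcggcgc
The windows of TIMP1, ADAM17 and TIMP3 held 2, 3 and 5 GC boxes and no match to the other 3 motifs. That of MMP7 held 1 AP-1 match, 60 bases before the start, and 1 TATA box, 24 bases before it, and no GC box. None of these 4 windows matched the STAT6 motif. RefSeq windows were found for 39 of the 67 member symbols. A GC box was present in 26 of the 39 (66.7%, against 42.6% of all 35116 windows), an AP-1 match in 4 (10.3%, against 6.57%), a TATA box in 7 (17.9%, against 10.7%) and a STAT6 match in 2 (5.13%, against 5.38%). The AP-1 matches were those of ADAMTS12, MMP7, MMP10 and MMP20, and the STAT6 matches those of ADAM21 and MMP27. Members were counted by gene symbol, while the 35116 were all windows of the source and were not limited to the tested genes. The 2 shares therefore come from unlike sets. A match is a run of letters, not a measured binding site.

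Genes that act with these proteases were examined in 3 lists. Among 8 ligands of the EGF receptor family that ADAMs shed (10 features, NRG1 included), 1 feature had an adjusted p under 0.05 for the mean IL-13 effect. This was HBEGF, the heparin-binding ligand released by ADAM17 and other ADAMs, which read 7.14 and 7.09, then 7.78 and 7.86 with IL-13, in shSCR cells and 7.39 and 7.28, then 7.85 and 7.96 with IL-13, in knockdown cells. All 4 IL-13 arrays lay above all 4 mock arrays (mean IL-13 effect 0.64, 95% interval 0.46 to 0.81, adjusted p = 0.0242 by limma), and its mean knockdown effect was 0.15 (adjusted p = 0.503 by limma). ADAM17, one of its sheddases, had a mean IL-13 effect of 0.16 (adjusted p = 0.644 by limma). The list's median mean IL-13 effect was -0.05, against 0.008 over all features, with 4 of 10 features at an unadjusted p under 0.05 (8.73% of all features). For the mean knockdown effect the list's median was -0.04 (-0.006 over all features), again with 4 of 10 features at an unadjusted p under 0.05 (11.3% of all features). Both features of AREG, or amphiregulin, named after its values were seen, had knockdown arrays below all shSCR arrays (-0.43 and -0.42, adjusted p = 0.0845 and 0.091 by limma).

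Of 11 matrix substrates (12 features) reported here, 3 of which are collagens also in the fibroblast list, tenascin C had an adjusted p under 0.05. TNC, a matrix glycoprotein, read 7.41 and 7.29, then 8.06 and 8.04 with IL-13, in shSCR cells and 6.93 and 6.87, then 7.34 and 7.38 with IL-13, in knockdown cells. It was higher with IL-13 and lower with the knockdown, with a mean IL-13 effect of 0.58 (adjusted p = 0.0318 by limma) and a mean knockdown effect of -0.57 (adjusted p = 0.0238 by limma). In the list, 10 of 12 features had a mean knockdown effect below 0 (median -0.11, against -0.006 over all features), and 5 had an unadjusted p under 0.05 (11.3% of all features). None of these differences reached 2-fold. The list of 21 activators, inhibitors and scaffolds holds the plasminogen system, furin-type convertases, RECK, iRhoms and tetraspanins. It had no adjusted p under 0.05 in any comparison (smallest 0.0694, by limma, for the mean knockdown effect). For that effect 4 features had an unadjusted p under 0.05 (11.3% of all features), 1 higher and 3 lower, and the median was -0.04. The tetraspanin TSPAN5, named after its values were seen, differed by -1 between IL-13-treated knockdown and untreated shSCR cells (adjusted p = 0.0892 by limma). In that comparison 9 of the 21 features were higher and 12 lower. The knockdown effect on TSPAN5 was -0.63 without and -0.81 with IL-13 (adjusted p = 0.356 and 0.296 by limma).

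**Figure D5:**
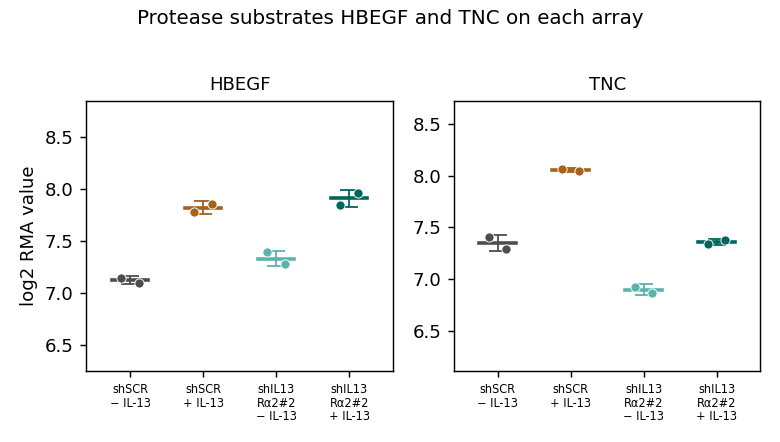
Log2 RMA value (vertical axis) of HBEGF and TNC in the 4 groups (horizontal axis), with arrays as points, the mean as thick and the SD as thin bars. HBEGF and TNC are higher with IL-13 in both constructs, and TNC is lower in knockdown than in shSCR cells of the same treatment.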

How the data were processed

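MIV-Luc cells of 4 groups were profiled on 2 arrays each. The authors deposited log2 values per gene-level feature, made with RMA in Affymetrix Expression Console version 1 per the labels (background correction, quantile normalization and probe summary). The annotation build was not given in the sources used here. Of 33297 features, 4156 controls were left out and 29141 tested, with no filter. Columns were assigned to groups by construct and treatment, and arrays are named A and B in column order. The methods call the replicates biological. The number of arrays limits the precision.

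Group means were fitted with limma 3.58.1 in R 4.3.3 over all 8 arrays (4 residual and 3.86 prior degrees of freedom), with Benjamini-Hochberg adjustment over all features. The procedure was run on simulated data, where recovery of changed features was required only at a change above 2-fold. No member effect was that large. Named are members with an adjusted p under 0.05, the 3 highest and 3 lowest non-overlapping members per pairwise comparison, the 2 widest-ranging per role group, the 3 largest interactions, a fixed set of well-known members, and regulators with an adjusted p under 0.05. Members and lists were chosen with earlier results of these data known. ADAM1, ADAM5 and MMP23A, which the role lists name, matched no feature, and 1 gene of the matrix substrate list is not reported here. Promoter windows came from RefSeq. The alternatives were the methods' test (one-way analysis of variance, here on the 4 arrays of a pairwise comparison), unadjusted and adjusted, limma on 4 arrays or unadjusted, a trended robust prior, removal of the dimmest 30%, 2 renormalizations, no fold change threshold and leaving out each array.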

Additional observations from a re-analysis of the deposited data

How the results depend on the processing

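The number of members called in each of the 8 comparisons was 0 under every alternative run that kept the adjustment and the 2-fold threshold, including each array left out. Some of these could call few features of any kind. The methods' test with adjustment, run for the 5 pairwise comparisons, had 0 of all 29141 features at an adjusted p under 0.05, limma on the 4 arrays, run for the same 5, had 0 to 2, and leaving out 1 array left 0 to 41, so a count of 0 members there says little about stability. Without the fold change threshold it was 2 (TIMP1 and ADAM17) for the mean knockdown effect and 0 elsewhere, and for the interaction limma without adjustment gave 5, without a fold change threshold. The number of members with an adjusted p under 0.05 alone was then followed through the same settings, a choice made after seeing the data. For the mean knockdown effect it was 3 with a robust, intensity-trended prior, which added TIMP2 while the number over all features went from 130 to 655, and 1 (TIMP1) with arrays shifted to one median, where the adjusted p of ADAM17 was 0.0595 by limma. With the trend and robust prior TIMP1 and ADAM17 passed in each treatment alone (adjusted p = 0.0144 and 0.0201 without IL-13, 0.0175 and 0.0373 with IL-13, by limma), where all features passing went from 20 to 262 and from 16 to 141. With any 1 of the 8 arrays left out it was 0. None of the 35 named effects of members changed sign under any alternative run. Apart from the interactions, leaving out 1 array could not have reversed a sign. In those effects every array on one side of the comparison lay above every array on the other. Their unchanged sign in these runs is therefore no evidence of stability. Of the 35 effects, 17 moved by more than 1.5 times when 1 array was left out. Among them was that of TIMP3 feature 8075635 in IL-13-treated knockdown against untreated shSCR cells (0.52 to as low as 0.18). Another was that of MMP19 feature 7963946 with IL-13 in knockdown cells (0.60 to as low as 0.17). No paired analysis was possible because the column headings number the arrays through all groups and do not give the replicate. With 2 arrays per group the median standard error of a member was 0.14 in a pairwise comparison and 0.20 in the interaction.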
